A study of Mus musculus with 2 samples.

Results

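The regions described here are the strongest distal DNase I peaks that both libraries of mouse embryonic facial tissue had in common. They are the replicate 1 peaks on chromosomes 1 to 19 with a strength of 60 or more that a replicate 2 peak with a strength of 100 or more overlapped by at least 75 bp. The members were therefore chosen by strength in both libraries, the authors' signal value for a peak, a whole number of at most 150 with no stated relation to sequencing depth. The midpoint of each peak lay over 5 kb and up to 500 kb from every transcription start site (TSS) of a protein-coding transcript of a protein-coding gene, and outside protein-coding exons (GENCODE mouse release M21). These limits left 2460 members of the 205599 replicate 1 peaks. Of the 83993 replicate 1 peaks shared with replicate 2, 46666 were distal by the same limits, and 5.27% of those were members. That share is set by the rule itself. The other 44206 shared distal peaks, which missed at least 1 strength threshold, are the reference below, together with 11040 shared promoter peaks (midpoint within 1 kb of a protein-coding TSS) past both thresholds.

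The assay was DNase-seq, in which sites open to cutting by the enzyme DNase I are sequenced. Both libraries came from 1 group: facial prominences, the tissue swellings that become the face, of B6NCrl embryos at day 11.5, male and female pooled, recorded as healthy and with no treatment or engineered allele in the labels. They are labelled biological replicates 1 and 2, from separate biosamples with the same donor label, and replicate 2 was run on 1 more sequencer model than replicate 1. With a single group there is no contrast between conditions, and the files analysed give no totals of reads, so that library depth is unknown. Peaks are not replicates, so that no test was run over them, and each exact 95% binomial interval covers counting error only.

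Distal accessible sites hold several kinds of element. Enhancers bind tissue-specific transcription factors and act on promoters from afar, CTCF sites bind the zinc finger protein that helps to fold chromosomes into loops, and unannotated or noncoding promoters, including those of tRNA genes read by RNA polymerase III, also open chromatin far from protein-coding genes. In the early face, neural crest mesenchyme makes up most of the prominences beneath a thin ectoderm, and homeodomain and basic helix-loop-helix proteins are among its best known regulators.

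The sequences below, from the GRCm38 (mm10) reference in lower case and read 5' to 3', show 4 kinds of element found among the members. The 2 members with the highest mean rank of strength over both libraries are given whole on the + strand. Capitals mark matches to the SP motif GGGCGG in either direction, a sequence typical of CpG island promoters.
Cr2 (chr1:195241616-195241765, + strand): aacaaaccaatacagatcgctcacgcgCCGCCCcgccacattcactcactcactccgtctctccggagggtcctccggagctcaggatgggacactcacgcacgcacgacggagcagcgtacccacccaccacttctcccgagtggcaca
Trappc9 (chr15:73067616-73067765, + strand): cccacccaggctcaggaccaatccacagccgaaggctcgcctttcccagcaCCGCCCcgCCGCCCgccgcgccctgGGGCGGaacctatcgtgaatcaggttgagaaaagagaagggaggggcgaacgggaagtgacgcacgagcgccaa

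Next come 4 members with the highest mean rank among those with a match to the 12-position CTCF core, each in a 40 bp window read along the strand of the match. Capitals mark the core.
Rassf7 (chr7:141221927-141221966, - strand): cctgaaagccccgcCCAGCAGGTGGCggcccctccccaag
Stard10 (chr7:101310776-101310815, + strand): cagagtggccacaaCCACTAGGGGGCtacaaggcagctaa
Wee1 (chr7:110164963-110165002, + strand): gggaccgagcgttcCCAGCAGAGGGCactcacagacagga
Cp (chr3:19894788-19894827, - strand): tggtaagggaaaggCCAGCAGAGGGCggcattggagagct

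The following 3 members are those of highest mean rank whose 150 bp hold a whole tRNA gene of the RefSeq annotation. Each is on the + strand, and capitals mark the bases of the tRNA gene.
Abt1, tRNA-Tyr gene on the - strand (chr13:23432956-23433105): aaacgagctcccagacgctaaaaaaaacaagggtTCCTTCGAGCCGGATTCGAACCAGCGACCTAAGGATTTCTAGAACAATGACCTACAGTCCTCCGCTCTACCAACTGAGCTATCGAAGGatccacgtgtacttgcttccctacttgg
Lrp3, tRNA-Thr gene on the - strand (chr7:35234716-35234865): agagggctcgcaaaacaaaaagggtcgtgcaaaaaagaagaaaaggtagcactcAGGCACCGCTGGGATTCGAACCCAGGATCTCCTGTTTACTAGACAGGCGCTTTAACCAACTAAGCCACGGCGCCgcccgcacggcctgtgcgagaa
Gpx5, tRNA-Thr gene on the + strand (chr13:21275936-21276085): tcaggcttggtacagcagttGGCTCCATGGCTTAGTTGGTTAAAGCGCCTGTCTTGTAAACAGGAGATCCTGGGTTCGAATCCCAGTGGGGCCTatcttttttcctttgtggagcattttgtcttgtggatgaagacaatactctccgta

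Finally, 16 members held TAAT, the core that homeodomain proteins recognise, followed after exactly 6 bases by the E-box CAGATG. Of these, 15 are given as 40 bp windows, without the one nearest to Nfatc1, read in the direction of that order, with both motifs in capitals, because the fixed distance between the motifs carries the result described further on.
Mgst2 (chr3:51701655-51701694, + strand): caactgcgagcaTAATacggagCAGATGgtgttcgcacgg
Tns3 (chr11:8624664-8624703, - strand): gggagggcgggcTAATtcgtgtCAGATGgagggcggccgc
Cpn2 (chr16:30236384-30236423, + strand): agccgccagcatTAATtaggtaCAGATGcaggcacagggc
Hand2 (chr8:57328620-57328659, - strand): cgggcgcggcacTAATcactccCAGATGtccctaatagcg
1700122O11Rik (chr17:47988951-47988990, - strand): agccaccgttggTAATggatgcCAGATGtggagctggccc
Spsb1 (chr4:149893961-149894000, + strand): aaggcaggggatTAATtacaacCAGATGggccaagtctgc
Ptgs1 (chr2:36211832-36211871, + strand): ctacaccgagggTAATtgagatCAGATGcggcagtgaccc
Dnm1 (chr2:32319656-32319695, + strand): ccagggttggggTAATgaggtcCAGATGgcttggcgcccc
Sox9 (chr11:113014382-113014421, + strand): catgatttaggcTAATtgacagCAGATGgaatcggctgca
Trappc9 (chr15:73069073-73069112, - strand): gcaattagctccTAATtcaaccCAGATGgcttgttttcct
Tead1 (chr7:112826450-112826489, - strand): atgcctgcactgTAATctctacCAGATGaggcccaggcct
Tbx1 (chr16:18555400-18555439, + strand): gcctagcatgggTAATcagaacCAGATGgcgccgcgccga
Col1a1 (chr11:94882032-94882071, + strand): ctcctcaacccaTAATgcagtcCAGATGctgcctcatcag
Magi1 (chr6:94336338-94336377, - strand): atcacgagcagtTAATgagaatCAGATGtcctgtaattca
St6gal2 (chr17:55367275-55367314, - strand): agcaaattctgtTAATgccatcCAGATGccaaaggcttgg

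Strength, on which the members were selected, is given as a description. In replicate 1 the members ranged from 60 to 123 with a median of 71, and their matched replicate 2 peaks ranged from 100 to 146 with a median of 112. The other shared distal peaks had medians of 26 and 62, and the strong promoter peaks medians of 90 and 127. By these medians the members lay between the other distal peaks and the strong promoters, and their place above the other distal peaks was set by the rule. At the edge of the rule, members near Itm2c, Chdh, Arfgap2 and Uvssa had strengths of exactly 60 and 100. Peaks near BC035947, Bcas3 and Xkr6, at 60 and 99, and a peak near Efcab6, at 59 and 100, lay just outside. In all, 208 other shared distal peaks missed a threshold by 1 unit in 1 library. A further view of the edge is that 1295 of the other peaks passed the replicate 1 threshold alone and 1757 passed the replicate 2 threshold alone. Matched peaks had to overlap by at least 75 of their 150 bp, so that close positions of the calls were set by the rule. Of the members, 1060 (43.1%) had the same coordinates in both libraries, 1040 were shifted by 20 bp, 285 by 40 bp and 75 by 60 bp. The share with the same coordinates was 30.5% in the other shared distal peaks.

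**Figure D1:**
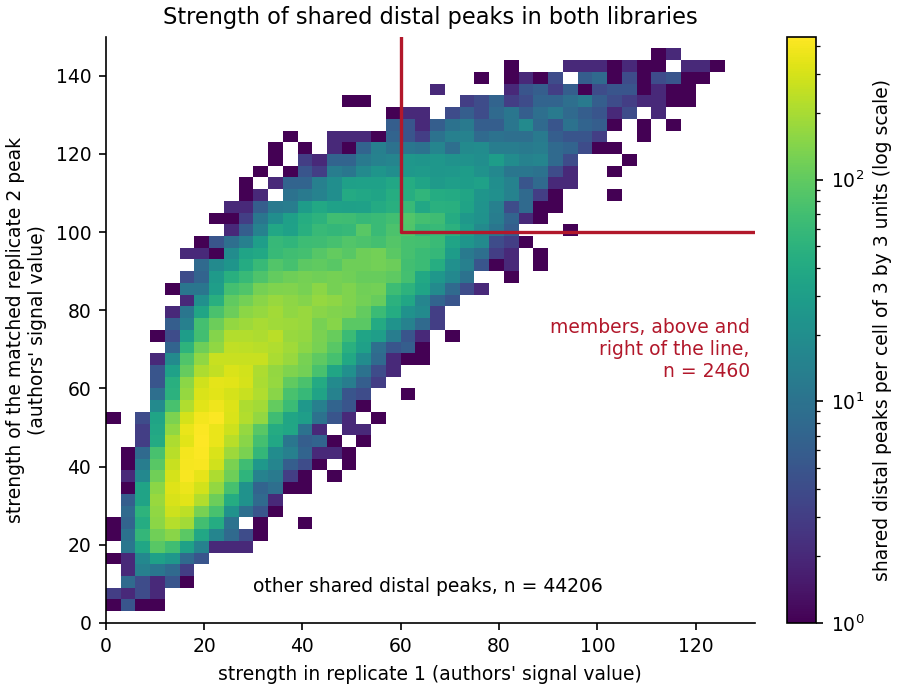
Strength of the 46666 shared distal peaks in replicate 1 (horizontal axis, the authors' signal value) and of the matched replicate 2 peak (vertical axis), as the number of peaks per cell of the grid on a log colour scale. The red line marks the thresholds of 60 and 100; the 2460 members lie above and to the right of it, at the upper end of a continuous cloud.

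The 12 members with the highest mean rank had strengths of 111 to 123 in replicate 1 and 139 to 146 in replicate 2. All 12 were rich in CpG, defined here as a GC content of at least 50% with an observed to expected CpG ratio of at least 0.6 in the 150 bp, and their GC content ran from 61.3% to 78.0%. Of the 12, 10 lay within 1 kb of the start of a transcript in GENCODE or RefSeq that the rule did not count, and 1 lay in an intron of a protein-coding gene. The first, at chr1:195241616-195241765 and 65 kb upstream of Cr2 (complement receptor), had strengths of 123 and 143. It lay 684 bp from Gm27940, annotated as a miscellaneous RNA. The second, 6.49 kb upstream of Trappc9 (a subunit of a vesicle transport complex), had 116 and 144 and no other annotated start within 1 kb.

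Noncoding transcripts lay beside several of the rest. The member at chr11:120189956-120190105 (121 and 142) lay 179 bp from the start of 2810410L24Rik, and that at chr11:6528756-6528905 (120 and 142) lay 71 bp from the start of Snhg15, a small nucleolar RNA host gene. At chr5:151368576-151368725 (117 and 142) the start of 1700028E10Rik was 24 bp away, and at chr13:48546576-48546725 (117 and 141) that of 6720427I07Rik was 151 bp away. The member at chr7:141221856-141222005 (111 and 145), downstream of a Rassf7 TSS, lay 438 bp from Mir210, the hypoxia-induced microRNA, and held the CTCF core shown above. At chr13:48227796-48227945 (114 and 140), upstream of the helix-loop-helix inhibitor gene Id4, a RefSeq lncRNA start lay 87 bp away.

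At 3 of the 12, the Id4 member among them, a RefSeq start and no GENCODE start lay within 1 kb. The member near Scd3, a fatty acid desaturase gene (chr19:44248216-44248365, 114 and 146), lay 37 bp from a RefSeq mRNA start of Pkd2l1, and the nearest GENCODE start was 1721 bp away. The one near Tfap4 (chr16:4541856-4542005, 112 and 143) lay 23 bp from a RefSeq mRNA start and 115 bp from a GENCODE start of Srl. The remaining 2 were 35.6 kb upstream of Alox5ap (121 and 139), where an asparagine tRNA gene started 117 bp away, a RefSeq lncRNA 203 bp away and the nearest GENCODE transcript 2141 bp away, and 10.1 kb upstream of the amino acid transporter gene Slc38a2 (114 and 140).

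Across all members, 441 (17.9%, interval 16.4% to 19.5%) lay within 1 kb of a GENCODE TSS of any gene type. Of these, 161 were nearest to the start of a lincRNA, 50 to a processed transcript and 41 to an antisense RNA. Another 84 were nearest to a start of a protein-coding gene, at a transcript not itself annotated as protein-coding. Of the other shared distal peaks, 6.80% lay within 1 kb of a GENCODE TSS of any gene type. A further 166 members had no such GENCODE start but a RefSeq mRNA or lncRNA start within 1 kb. In all, 607 (24.7%) lay near some annotated start, beside 9.89% of the other shared distal peaks. A RefSeq mRNA start lay within 1 kb of 105 members. CpG-rich members numbered 873 (35.5%, interval 33.6% to 37.4%), beside 5.35% of the other shared distal peaks and 88.3% of the strong promoter peaks. Both annotations left 524 CpG-rich members (21.3%) with no start within 1 kb and no tRNA gene start within 250 bp. The share of the other shared distal peaks was 3.74%. The median GC content was 57.3% in members, 49.3% in the other shared distal peaks and 68.0% in the strong promoter peaks.

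This make-up differed along the range of strength within the members. Among the 549 members with a replicate 1 strength of 60 to 64, 17.7% were CpG-rich and 12.2% lay within 1 kb of a GENCODE TSS. Among the 269 with 90 or more, 81.8% were CpG-rich and 37.2% lay near such a TSS. The share in introns was 33.5% in the lowest class and 15.6% in the highest. CTCF core matches did not follow the CpG-rich share: they were at 16.4%, 19.9%, 18% and 15.3% in the first 4 classes and at 4.83% in the highest. The classes were formed on the value that selected the members, so that the shares are a description of these peaks.

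**Figure D2:**
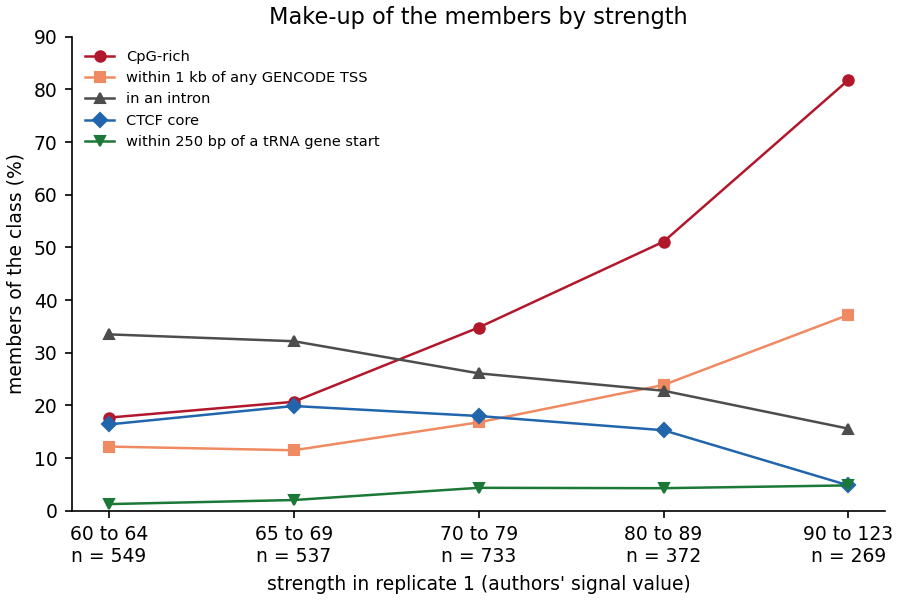
Share of members (vertical axis, %) with each feature in 5 classes of replicate 1 strength (horizontal axis, the authors' signal value, with the number of members below). The CpG-rich share runs from 17.7% to 81.8% and the share near any GENCODE TSS from 12.2% to 37.2%, while the CTCF core share is lowest, 4.83%, in the top class.

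CTCF core matches were present in 399 members (16.2%, interval 14.8% to 17.7%), beside 9.39% of the other shared distal peaks and 1.12% of the strong promoter peaks. With 1 mismatch allowed, the shares were 39.3%, 26.3% and 5.44%. The 404 matches lay at a median of 15 bp from the replicate 1 midpoint and 19 bp from the replicate 2 midpoint, and 73.0% of them lay within 25 bp of the replicate 1 midpoint. Only 66 of the 399 members were CpG-rich, and 57 lay within 1 kb of another annotated start. The strongest without such a start were 6.26 kb upstream of Stard10, a lipid transfer gene (100 and 132), and 42.9 kb downstream of the mitotic kinase gene Wee1 (99 and 131). A second core member lay 620 bp from the Wee1 one (chr7:110164256-110164405, 97 and 127). These 2 members shared a hotspot and their cores pointed in opposite directions.

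Orientation was read for all 399, since no member held cores on both strands: 193 were on the + strand and 206 on the - strand. Of 116 neighbouring pairs of core members from 1 kb to 1 Mb apart, 52 pointed the same way, 28 toward each other and 36 away from each other.

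Genes for tRNAs were a second recognisable group. RefSeq placed 386 tRNA genes on chromosomes 1 to 19, of which 295 started over 5 kb and up to 500 kb from protein-coding TSSs. A member lay within 250 bp of the start of 67 of these 295 (22.7%), and a shared peak of any strength within 250 bp of 181. Seen from the peaks, 79 members (3.21%) lay within 250 bp of a tRNA gene start, beside 0.371% of the other shared distal peaks and 0.172% of the strong promoter peaks. Their strengths ran from 61 to 121 in replicate 1 (median 77) and from 100 to 139 in replicate 2 (median 108). The median distance from peak midpoint to tRNA gene start was 43 bp, and none of the 79 lay in an intron of a protein-coding gene.

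Members stood at tRNA genes for 19 amino acids. Threonine tRNA genes had members at 9 of 15 distal genes, arginine at 8 of 15 and leucine at 8 of 20. Cysteine was the exception: of 52 distal genes, 49 of them on chromosome 6, 0 had a member, which allows a share of up to 5.77%, and 2 had a shared peak. The other 243 distal tRNA genes had a shared peak in 179 cases (73.7%). Copies of tRNA genes are nearly identical, and 32.9% of the members at tRNA genes shared a stretch of 36 bases with a member elsewhere, beside 0.462% of the other members. The treatment of reads that map to several places is not stated in the files or labels, and the part of this in the result was not tested.

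Matches to 19 short motifs, searched on both strands of the 150 bp, set the members between the other distal peaks and the promoters for most sequences typical of CpG islands. The SP motif GGGCGG was present in 27.3% of members, 6.60% of the other shared distal peaks and 63.6% of the strong promoter peaks. NRF1 (GCGCNNGCG, bound by a regulator of housekeeping genes) was at 6.67%, 0.932% and 24.6%, ETS (CCGGAAG) at 3.70%, 1.13% and 14.8%, and CREB (TGACGTCA) at 1.54%, 0.357% and 3.57%. AP-2 (GCCNNNGGC), the motif of the neural crest and ectoderm factors of the Tfap2 family, was at 11.5%, 5.47% and 19.1%.

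Motifs rich in A and T ran the other way. The homeodomain motif TAATTA was in 1.3% of members and 4.21% of the other shared distal peaks, PBX (TGATTNAT) in 0.528% and 1.88%, and the GATA factor motif AGATAA in 1.91% and 5.48%. The E-box CAGATG, with 14.2% and 19.9%, and the forkhead motif TGTTTNC, with 10.8% and 15.7%, were also at lower shares in members.

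The shares of members and others lay closer for SOX (ACAANG), TEAD (GGAATG), MEIS (TGACAG), NFI (TTGGC) and NFY (CCAAT), with ratios of members to others from 0.799 to 1.17. AP-1 (TGANTCA), at 2.93% and 4.66%, and the nuclear receptor motif AGGTCA, at 5.93% and 9.46%, had lower shares in members, and YY1 (AAGATGGCG) was at 0.447% and 0.247%. Base composition moved with these shares, since the GC medians above differ in the same order, and its part in them was not tested.

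**Figure D3:**
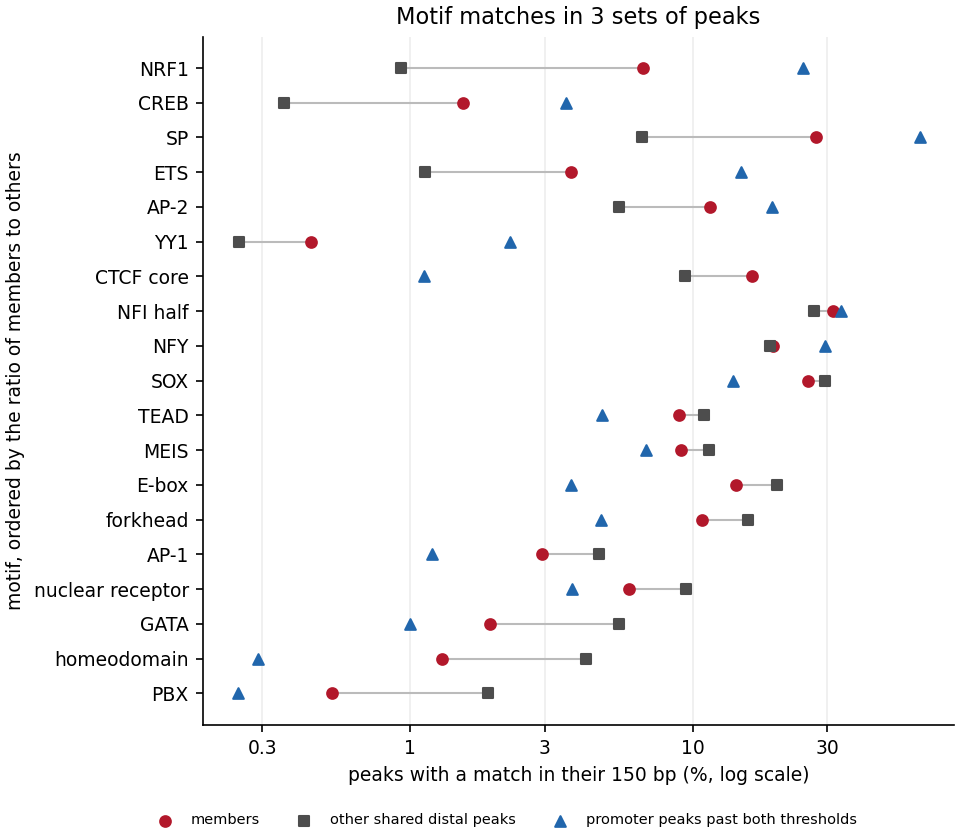
Share of peaks with a match to each of 19 motifs (horizontal axis, %, log scale) in members (red circles), other shared distal peaks (grey squares) and strong promoter peaks (blue triangles), ordered by the ratio of members to other distal peaks. NRF1, at 6.67% of members and 0.932% of others, stands at the top, and PBX, at 0.528% and 1.88%, at the bottom; CTCF is the motif that is more frequent in members than in either other set.

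One spacing of 2 motifs stood apart from all others looked at. In members, TAAT followed by CAGATG on the same strand with 6 bases between them was found in 16 peaks. Each of the other 20 distances from 0 to 20 bases was found in at most 2. The other shared distal peaks had the same preferred distance, with 366 peaks at 6 bases and between 12 and 45 at each other distance. In the opposite order, CAGATG before TAAT, the most frequent distance in the other shared distal peaks was 4 bases, with 89 peaks, and members had at most 3 peaks at any distance. A composite of a homeodomain core and an E-box at a fixed distance is known, as background, from facial mesenchyme, where it is called Coordinator and is bound by TWIST1 together with ALX and related homeodomain proteins. As a share, the composite was in 0.650% of members (interval 0.372% to 1.05%) and 0.828% of the other shared distal peaks.

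**Figure D4:**
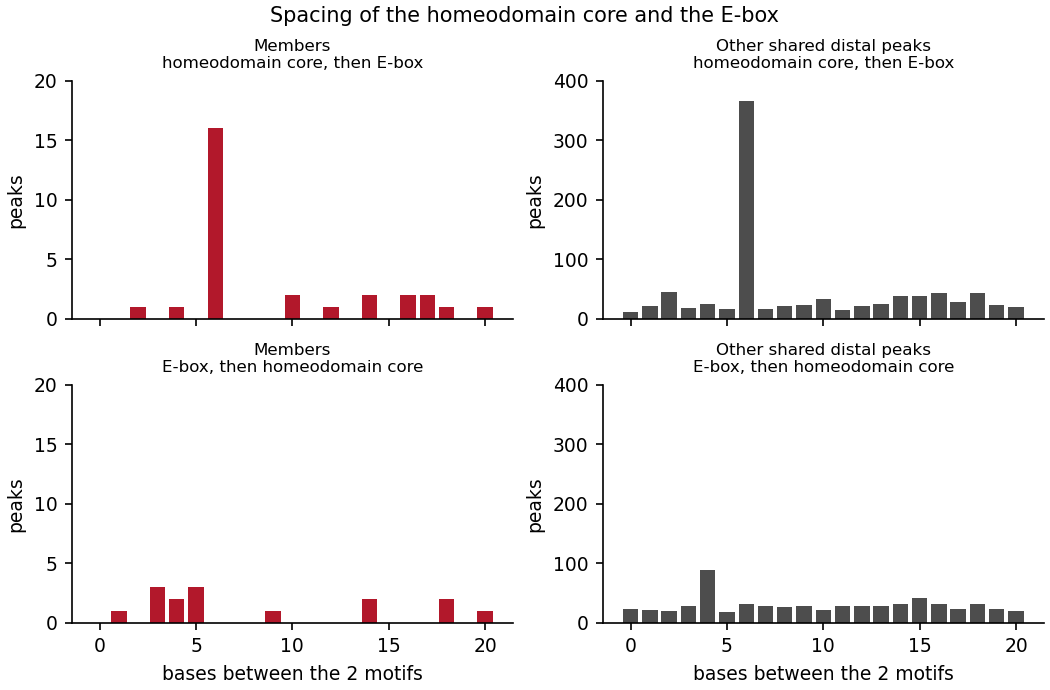
Number of peaks (vertical axes; 20 at most for members on the left, 400 at most for other shared distal peaks on the right) in which a homeodomain core and an E-box lie 0 to 20 bases apart (horizontal axes), with the core first (top) or the E-box first (bottom). With the core first, a distance of 6 bases holds 16 members and 366 other peaks, against at most 2 and 45 at any other distance.

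The 16 composite members had replicate 1 strengths from 60 to 84 and replicate 2 strengths from 104 to 128. The 6 bases between the motifs were different in all 16, while the base just before CAGATG was C in 9 of the 16 and in 170 of 368 sites (46.2%) of the other peaks. The composite lay at a median of 35 bp from the replicate 1 midpoint and 34 bp from the replicate 2 midpoint. In the other shared distal peaks these medians were smaller, at 25 and 21.5 bp. Of the 16, 3 were nearest to a gene of the 4 lists of face genes described further on (18.8%, beside 3.55% of the other shared distal peaks with the composite), and with 16 members nothing is read from that difference. One of the 3 was 7.71 kb downstream of the TSS of Hand2, a jaw patterning transcription factor (chr8:57328616-57328765, 79 and 122). Another was 232 kb downstream of that of Sox9, the cartilage and neural crest regulator (chr11:113014336-113014485, 74 and 113). The one 31.5 kb downstream of the TSS of Tbx1 (chr16:18555376-18555525, 69 and 113) had 1 other shared distal peak nearest to the same gene. This member lay in an intron of a protein-coding gene, and its nearest GENCODE start of any type, 6.708 kb away, belonged to Gnb1l. One lay 54.2 kb upstream of Col1a1, a collagen gene of bone and mesenchyme (chr11:94881976-94882125, 68 and 113). The others were nearest to Mgst2, Tns3, Cpn2, 1700122O11Rik, Spsb1, Ptgs1, Dnm1, Tead1, Magi1, Nfatc1, St6gal2 and Trappc9, of which the Nfatc1 member had the lowest replicate 1 strength (60 and 116). The member 7.91 kb upstream of Trappc9 (chr15:73069036-73069185, 72 and 115) held both the composite and a CTCF core and lay 1420 bp from the second strongest member of all.

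Sorted into classes in a fixed order, so that each member counts once, 79 lay at a tRNA gene start, 585 more near another annotated start, 341 more held a CTCF core, 472 more were CpG-rich and 8 more held the composite. In that order, the classes held 3.21%, 23.8%, 13.9%, 19.2% and 0.325% of members. They held 0.371%, 9.84%, 8.69%, 3.62% and 0.765% of the other shared distal peaks. The remaining 975 (39.6%) had none of these features, beside 76.7% of the other shared distal peaks. Those 975 had median strengths of 68 and 111, and 33.3% of them lay in introns. Their motif shares were close to those of the matching remainder of the other shared distal peaks for SOX (28.9% and 30%), TEAD (11.4% and 11.5%), the E-box (18.3% and 20.1%) and MEIS (11.1% and 11.8%). They were further apart, with the members higher, for SP (18.4% and 5.34%), AP-2 (10.4% and 5.32%) and the CTCF core with 1 mismatch (35.7% and 19.8%). The same held for NRF1 (2.36% and 0.386%), ETS (2.26% and 0.994%) and CREB (0.821% and 0.316%). With the members lower, the shares were further apart for homeodomain (1.54% and 4.45%), GATA (1.74% and 5.57%), PBX (0.615% and 1.96%) and forkhead motifs (12.5% and 16.6%). AP-1 (3.59% and 4.9%) and the nuclear receptor motif (7.38% and 10%) were also lower in members.

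Position in genes and distance were as follows. In introns of protein-coding genes lay 675 members (27.4%, interval 25.7% to 29.2%), beside 42.0% of the other shared distal peaks. The other 1785 members lay outside protein-coding genes, and the bodies of noncoding genes were not considered. The median distance to the nearest protein-coding TSS was 25.9 kb in members and 41.0 kb in the other shared distal peaks. By distance, 451 members lay 5 to 10 kb away, 1297 lay 10 to 50 kb, 390 lay 50 to 100 kb and 322 lay 100 to 500 kb away. The farthest were 497 kb downstream of Zfp608 and 490 kb downstream of Galr1, both on chromosome 18, and 475 kb upstream of Zfp462 (chr4:54470156-54470305). The first 2 lay 3.71 kb and 437 bp from a lincRNA start.

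The members were spread over many genes. They had 1842 different nearest genes of the 20698 protein-coding genes on these chromosomes: 1423 genes had 1 member, 400 had 2 to 4 and 19 had 5 or more. The nearest TSS need not belong to a gene that a site regulates. The most members, 9, were nearest to 1700001O22Rik on chromosome 2, and the 5 nearest to its neighbour Cstad continued the same stretch. The 9 had replicate 1 strengths of 61 to 94, and 3 of them lay near other annotated starts, among them the start of the noncoding Gm14488 at 312 bp (chr2:30716656-30716805, 71 and 116).

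On chromosome 9, Ubash3b (a phosphatase gene of immune signalling) had 7 members over 405 kb and Sorl1 (a sorting receptor gene) 8 over 218 kb. All 15 lay 45.9 kb or more from the nearest protein-coding TSS of GENCODE and none lay in an intron of a protein-coding gene. For the 8 Sorl1 members the nearest RefSeq mRNA start, 20085 to 174845 bp away, was of Gm40514. The 15 members reached 451 kb upstream of Ubash3b and 388 kb downstream of Sorl1. The strongest were at chr9:41207536-41207685 (93 and 134) and chr9:41951256-41951405 (94 and 121). At 4 of the 15 a transcript of another gene, of a type other than protein-coding, started within 250 bp. An example is AC160966.1, 8 bp from the member at chr9:41805616-41805765 (69 and 130).

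Nfe2l3, a stress response transcription factor gene on chromosome 6, had 8 members 48.5 to 264 kb upstream of it. The strongest in replicate 2, at chr6:51270996-51271145 (99 and 139), lay 1161 bp from Mir148a, and 4 others formed a run of 10.6 kb farther out. The 6 members nearest to Ptma, the prothymosin gene, included 2 with replicate 1 strengths of 118 and 100 at 39.1 kb and 22.5 kb upstream. Of the 5 members nearest to G430095P16Rik, all intronic, 4 had Nfix, a nuclear factor I gene, as the nearest RefSeq mRNA, with starts 28684 to 35124 bp away. Trim27, Aurkb, Gpx5 and Olfr1423 were on the list because of tRNA genes. Of their members, 6 of 7, 5 of 5, 5 of 5 and 4 of 5 lay at one. Some of these overlapped each other and are not separate sites. Near Gpx5, the members at chr13:21264476-21264625 and chr13:21264556-21264705 shared a replicate 2 peak, as did those at chr13:21279616-21279765 and chr13:21279656-21279805. Gpx5 thus had fewer than 5 separate sites. Near Trim27, Aurkb and Olfr1423, members at tRNA genes also overlapped. The remaining genes with 5 or 6 members were Bmp7, Haao, Rpl14, Mef2c, Pde4d, Rab11fip4, Ror2 and Tmpo.

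Genes known from the face were the nearest gene of 76 members (3.09%), beside 3.52% of the other shared distal peaks and 0.676% of all protein-coding genes. They came from 4 lists of 140 annotated genes, 47 of which had a member; Tfap2a and Barx1 stood in 2 lists. By list, members nearest to facial mesenchyme and neural crest transcription factor genes numbered 32 (1.3%, beside 2.07% of the other shared distal peaks). Those nearest to jaw and arch patterning genes numbered 18 (0.732%, beside 0.495%), to facial signalling genes 24 (0.976%, beside 0.823%) and to facial ectoderm and epithelium genes 5 (0.203%, beside 0.242%).

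Among signalling genes, Bmp7, a bone morphogenetic protein ligand, had 6 members. Of these, 2 were intronic, about 6.01 to 6.33 kb from a TSS (strengths of 62 in replicate 1 and of 110 and 112 in replicate 2). These 2 lay 320 bp apart, 155 and 165 bp from a RefSeq lncRNA start. Another 3 formed a run of 6.73 kb about 108 to 115 kb downstream. Ror2, a Wnt5a receptor, had 5, of which 4 were intronic and 2 of those overlapped each other. The strongest Ror2 member in replicate 2 lay 23.7 kb upstream (chr13:53309796-53309945, 82 and 131), 121 bp from a RefSeq lncRNA start. Fzd2, a Wnt receptor, had 2, with the stronger 5 bp from the start of the lincRNA 2810433D01Rik (chr11:102624336-102624485, 89 and 136). Fgfr1, a fibroblast growth factor receptor, had 2 intronic members, the stronger at chr8:25543616-25543765 (81 and 131). The Wnt11 member (chr7:98815336-98815485, 79 and 120) lay 4 bp from the start of a proline tRNA gene. Rarb, Gli2, Axin2, Aldh1a3, Pdgfra and Smo had 1 or 2 members each.

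Among jaw and arch genes, Mef2c, a transcription factor gene acting in neural crest and muscle, had 5 members. Its strongest was 92.3 kb downstream of a TSS at chr13:83745136-83745285 (85 and 117), and 4 of the 5 were CpG-rich. Ednra, the endothelin receptor of the lower jaw, had 1 member 105 kb upstream (chr8:77829256-77829405, 72 and 125). Its GC content was 49.3%, near the median of the other shared distal peaks. Besides the Hand2 member with the composite, a second lay 32.8 kb downstream of that gene (chr8:57353716-57353865, 77 and 114). Dlx2 and Barx1 had 2 members each, and Gsc, Tbx1, Tbx3, Gbx2, Nkx2-3 and Notch2 had 1 each.

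Among transcription factor genes of the facial mesenchyme and crest, Tfap2a had the strongest member (chr13:40722836-40722985, 100 and 124), in an intron 6.03 kb from a TSS and 199 bp from the antisense RNA Gm47061. Next by mean rank were members 209 kb downstream of a TSS of Sox6 (chr7:115453516-115453665, 83 and 131), 196 kb upstream of Eya1 (chr1:14506616-14506765, 82 and 126) and 291 kb downstream of Ets1 (chr9:32986956-32987105, 78 and 131). Nr2f2, a COUP-TF gene, had 3 members, all CpG-rich, within 28.1 kb of its TSSs. Sox9, Six2, Meis1, Meis2, Sox4, Barx1 and Ets1 had 2 each. Twist1, Twist2, Msx2, Pitx1, Foxc1, Foxd1, Osr1, Snai1 and the other listed genes with a member had 1 each. The ectoderm list had 4 genes with members. Epcam, an epithelial adhesion gene, had 2, the stronger 8 bp from a RefSeq lncRNA start (chr17:87613476-87613625, 82 and 131), Krt8 had 1 with a CTCF core (85 and 120), and Nectin1 had 1 (73 and 108).

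The other 11 lists covered further cell types of the head, other organs and the trunk, and housekeeping genes. Cartilage and bone genes, 19 in number, were nearest to 15 members (0.61%, beside 0.38% of the other shared distal peaks), and 10 of the 19 had a member. Housekeeping genes had 4 members (0.163%, beside 0.0701%) and macrophage and leukocyte genes 4 (0.163%, beside 0.127%). The share among members was the lower of the pair for the remaining 8 lists. The olfactory placode, lens and forebrain list had 9 members (0.366%, beside 0.559%), the neuron and neural tube list 7 (0.285%, beside 0.319%) and the limb and trunk list 6 (0.244%, beside 0.319%). Skeletal muscle genes had 3 (0.122%, beside 0.163%), liver, pancreas and gut genes 3 (0.122%, beside 0.138%) and endothelial genes 2 (0.0813%, beside 0.179%). Erythroid genes had 1 (0.0407%, beside 0.0543%) and Hox genes 1 (0.0407%, beside 0.0611%).

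Promoter peaks past both thresholds were also counted by the listed gene nearest to them. They numbered 39 for the 53 facial transcription factor genes, 16 for the 24 jaw and arch genes, 49 for the 45 facial signalling genes and 3 for the 21 ectoderm genes. Among the other lists they numbered 37 for the 28 housekeeping genes, 12 for the 18 olfactory, lens and forebrain genes, 10 for the 19 neuron genes, 9 for the 19 cartilage and bone genes and 7 for the 39 Hox genes. They numbered 3 each for the 14 erythroid and 16 limb and trunk genes, 2 each for the endothelial and the macrophage lists, and 0 each for the 14 skeletal muscle and the 18 liver, pancreas and gut genes. Strong promoter peaks at genes of neural tissue, of blood and of the trunk were thus present beside those at face genes. These counts cannot decide whether the tissue label is right, since they are of peaks rather than genes and no other tissue was compared. Of all strong promoter peaks, 88.3% were CpG-rich, and the part of this in the counts was not tested. The part of other cells in the members was not tested.

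Most members had no other member within 10 kb. The spacing was not set against that of other peaks or of an even spread, so that nothing is read from it on clustering. The median gap from one member's start to the next on the same chromosome was 297 kb, with an interquartile range of 60 to 942 kb. There were 282 members (11.5%) within 1 kb of another, 541 (22%) within 10 kb and 937 (38.1%) within 50 kb. Overlap with another member affected 42 members, and 28 shared their replicate 2 peak with another, so that these are not separate sites. Chromosome 17 had the highest share of shared distal peaks that were members, 6.90%, and chromosome 10 the lowest, 3.77%.

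With gaps of up to 10 kb joined, 1919 members stood alone, 175 runs had 2 members, 37 had 3, 15 had 4 and 4 had 5. Of the 56 runs of 3 or more, 16 held a member at a tRNA gene, 43 members in all. The run on chromosome 11 near Aurkb (chr11:69036936-69040445) had 5 members in 3.51 kb, all at tRNA genes for isoleucine, serine, threonine and proline. Of the 5, those at chr11:69037756-69037905 and chr11:69037836-69037985 overlapped at the same threonine tRNA gene, although each of the 5 had a hotspot call of its own. The run near Olfr1368 and Trim27 (chr13:21161316-21170045) had 5 of 5 at tRNA genes, and the run near Olfr1423 (chr19:12005476-12012465) 4 of 5. These runs also held members that overlapped each other. The fourth run of 5, near 1700001O22Rik (chr2:30708196-30722165), had none at a tRNA gene, and 3 of its 5 lay near other annotated starts. Of the 15 runs of 4, 7 had a member at a tRNA gene or another annotated start and 8 had neither. The 2 runs of 4 with the highest mean rank were among the 8. One lay near Actg1, a cytoplasmic actin gene (chr11:120305236-120316345, replicate 1 strengths 78 to 96), and the other upstream of Nfe2l3 (chr6:51168176-51178745, 66 to 106).

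The hotspots that hosted the members, wider enriched regions called by the authors in each library, were long and of high confidence. All but 3 member midpoints lay in a hotspot of replicate 1, and all but 3 in one of replicate 2. The median host hotspot was 709 bp in replicate 1 and 718 bp in replicate 2, beside 275 and 337 bp for the other shared distal peaks and 1242 and 1355 bp for the strong promoter peaks. The deposited −log10 q of the host hotspot was at its ceiling of 100 for 98.5% of members in replicate 1 and 99.8% in replicate 2, beside 33.2% and 70.7% of the other shared distal peaks. Hotspots and peaks were called on the same reads, so that these values are not independent of the strengths that chose the members. The members lay in 2332 hotspots of replicate 1, of which 109 held 2 or 3 members, and in 2338 of replicate 2, of which 105 did. Of these host hotspots, 72.8% in replicate 1 and 65.4% in replicate 2 held a single peak of their library.

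Hotspot length differed between classes of member. Members near another annotated start had medians of 942.5 and 961 bp in the 2 libraries, other CpG-rich members 829 and 850.5 bp, and members with a CTCF core 528 and 486 bp. In the widest hotspots the libraries did not always match. The member downstream of a TSS of Sp9, a zinc finger gene (chr2:73278596-73278745, 94 and 120), lay in a hotspot of 8458 bp in replicate 1 and of 989 bp in replicate 2. The Tnrc18 member (chr5:142823536-142823685, 92 and 133) lay in hotspots of 7912 and 8424 bp, and was 57 bp from a RefSeq mRNA start of that gene. Of the run upstream of Nfe2l3, 3 members shared 1 hotspot of 7305 bp in replicate 1 and had hotspots of 427, 523 and 902 bp in replicate 2. The member in an intron 6.84 kb downstream of a TSS of Irx5, a homeobox gene (chr8:92364516-92364665, 67 and 100), had hotspots of 6131 and 6014 bp. That nearest to Smim15 (chr13:107890236-107890385, 98 and 138) had 2146 and 3848 bp. It lay 247 bp from a start of Zswim6, a processed transcript in GENCODE and an mRNA in RefSeq.

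**Figure D5:**
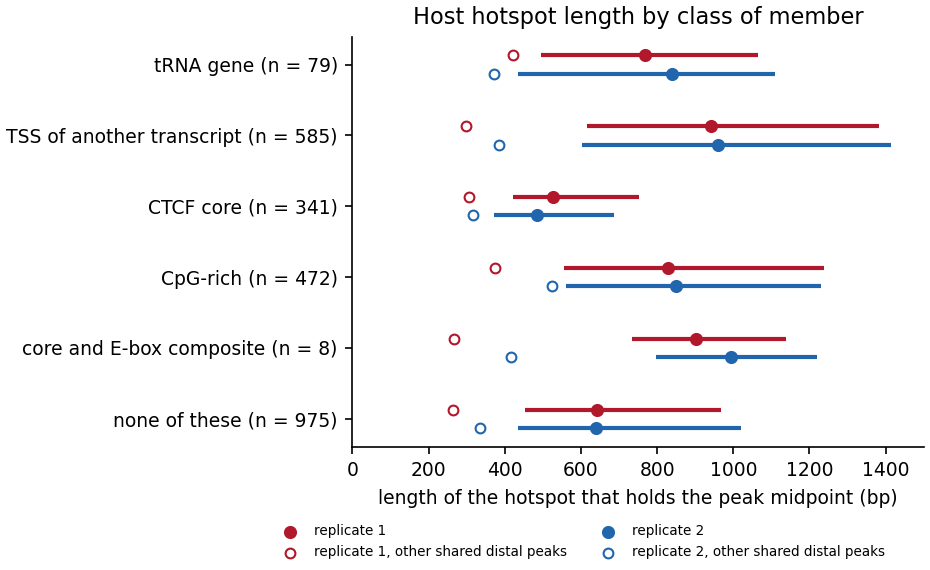
Length of the hotspot that holds the peak midpoint (horizontal axis, bp) for 6 classes of member (vertical axis, each member counted once) in replicate 1 (red) and replicate 2 (blue); filled points are medians of members, bars their interquartile ranges and open points the medians of other shared distal peaks of the same class. Members with a CTCF core have the shortest hosts, with medians of 528 and 486 bp, and members near another annotated start have 942.5 and 961 bp.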

How the data were processed

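DNase-seq of 2 libraries of 1 group was analysed. Per the labels and the notes deposited with the files, peaks and hotspots were called by the authors on each library alone, on build mm10. Neither the aligner nor the peak caller is named there. Strength is the signal value deposited by the authors for each 150 bp peak; the p and q columns of the peak files were empty. Each hotspot has a deposited −log10 q of at most 100; its deposited score was not used. The files give no totals of reads, so that precision set by depth cannot be given.

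Each replicate 1 peak was matched to the strongest replicate 2 peak that overlapped it by at least 75 bp. TSSs and exons came from GENCODE M21, further TSSs and tRNA genes from RefSeq, and sequence from GRCm38. A member counts as intronic when its midpoint lies inside a protein-coding gene. Motifs were exact matches on both strands of 150 bp. Calculations used Python 3.11.15, NumPy 2.4.6, pandas 2.3.3 and SciPy 1.17.1, and the searches were tested on simulated data with known answers. The rule, the members and the 15 gene lists were chosen with earlier results of these data known. Named members are the 12 of highest mean rank, those at the thresholds, up to 4 per face list, genes with 5 or more members, the widest hosts, the longest runs and the farthest from a TSS. Members at tRNA genes, with a CTCF core and with the composite were named after their values were seen. Alternatives changed the thresholds, overlap, TSS set, exon filter, motif and gene assignment.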

Additional observations from a re-analysis of the deposited data

Results flagged for a closer look

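Chromosome X lay outside the rule, and signal of the same kind was present there: 27 of 1006 shared distal peaks of chromosome X (2.68%, exact 95% interval 1.78% to 3.88%) passed both strength thresholds. A count of 0 would have allowed up to 0.298%. Of the 27, 14 were CpG-rich, 14 lay within 1 kb of a GENCODE TSS of any type and 1 held a CTCF core. On chromosomes 1 to 19 the share past both thresholds was 5.27%. The libraries came from embryos of both sexes, pooled, and the part of X dosage in the difference was not tested.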

How the results depend on the processing

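The number of members was 1018 with thresholds of 70 and 110, 5335 with 50 and 90, and 1062 with the stricter overlap (nearly the whole peak). With 1 library alone it ranged from 3855 (without replicate 2) to 4382 (without replicate 1). It stayed within 1.5 times of the main count under the other settings, including 1656 with TSSs of every GENCODE gene type and, chosen after seeing the data, 2564 with GENCODE basic TSSs and 2240 with all transcripts of protein-coding genes. The CTCF share was 39.3% with 1 mismatch and otherwise 10.7% to 21.3%, the latter without replicate 2 and 11.6% without replicate 1. The intron share was 22.3% with the stricter and 31.8% with the looser thresholds, 29.2% with the stricter overlap, 26% with no base in an exon, and 29.7% to 31.6% with 1 library left out. After leaving out members near other TSSs or tRNA genes, chosen after seeing the data, it was 29.2% of 1796 members, beside 42.7% of the other peaks left the same way. The face gene share was 3.74% with TSSs of every gene type, 4.15% with the 2 nearest genes and 2.20% with TSSs within 100 kb only, and ranged from 2.83% to 3.61% with 1 library left out. The cause of these shifts was not tested. No paired analysis was possible because there is a single group. Depth is unknown and limits what a strength difference can show.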
